A study of Mus musculus with 36 samples.

Results

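The complement system genes of the mouse liver are described here: 32 genes that encode components, regulators and receptors of complement, taken by their symbols from a table of 36066 genes. They are the recognition chains C1qa, C1qb, C1qc, Mbl1, Mbl2 and Fcna, the proteases C1ra, C1s1, Masp1, Masp2, C2, Cfb, Cfd and Cfi, the central components C3, C4b and Hc, the terminal components C6, C8a, C8b, C8g and C9, the soluble regulators Serping1, C4bp, Vtn, Clu and Cfp, the membrane regulators Cd55, Cd59a and Cr1l, and the receptors C3ar1 and C5ar1. All 32 had TPM above 0 in enough mice to be tested in every comparison.

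Whole-liver RNA of 36 mice aged 4 months was sequenced, with 3 females and 3 males in each of 6 cohorts. In 5 cohorts both copies of Gulo, the gene of the last enzyme of ascorbate synthesis, were inactivated, so that these mice depended on ascorbate in their drinking water. GL00 mice drank 0.4% ascorbate until 3 months of age and none for the last 4 weeks, GL01 mice drank 0.01% and GL05 mice 0.05% from weaning on, and GLR40 mice lost ascorbate at 2 months and drank 0.4% again from 3 months. GL40 mice drank 0.4% from weaning and served as the supplemented Gulo-/- cohort, and WT00 mice were Gulo+/+ without supplement. Livers were taken after a night without food, and a prefix F or M gives the sex. Each value comes from a separate animal. The inactivated allele is present in all cells and the sample is the whole organ, so that fewer cells of a type cannot be told apart from less RNA per cell.

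Complement is a cascade of plasma proteins, most of them made by hepatocytes and secreted into blood. C1q, the mannose binding lectins and the ficolins recognize surfaces and activate proteases, which cleave C4 and C2 and then C3, and an alternative route through factors B and D amplifies the cleavage of C3. The late components C5 to C9 build a pore in the target membrane, and regulators such as factor I, C1 inhibitor, vitronectin and clusterin restrain each step. Many of these genes belong to the acute-phase response that interleukin-6, STAT3 and C/EBP factors induce in hepatocytes. C1q, the mannose binding lectins and the ficolins carry collagen-like stalks, and the enzymes that hydroxylate collagen prolines need ascorbate.

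The table keeps no read counts, so the depth behind each library cannot be read from it; the study's methods give only an average. Values are TPM, the abundance of each transcript scaled for its length, and sum to the same total in each mouse. Between 18701 and 20093 genes were above 0 in a mouse, the Pearson correlation of log2(TPM + 1) between any 2 mice was 0.963 to 0.995, and no 2 mice had the same column. Gulo stood at 16.4 to 52.2 TPM in the 30 Gulo-/- mice and at 144 to 269 TPM in the 6 Gulo+/+ mice, and Ddx3y, a Y-linked gene, matched the sex label of all 36 mice; for 1 GLR40 male the sample title and the sex label disagree, and the label was used. Markers of hepatocytes were high throughout, at a summed 69107 to 93692 TPM for 8 genes. FGL40-2695 carried transcripts of pancreatic acinar cells, 9181 TPM over 8 markers against 9.40 to 58.6 TPM in the other mice, and MGL01-2713 stood apart from its 2 cohort mates in several acute-phase genes, so the main counts that rest on them are given without them too.

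Together the 32 genes took 0.911% to 1.63% of all TPM of a liver. C3, whose product is the hub of all 3 activation routes, was the most abundant at a mean of 3425 TPM over the 36 mice, ahead of Vtn, vitronectin, at 1819 TPM, Clu, clusterin, at 1119 TPM and Cfb, factor B, at 775 TPM. Serping1, Cfi and C4b had means of 583, 431 and 549 TPM. The lowest were the receptors of the fragments C3a and C5a, C3ar1 at 1.57 TPM and C5ar1 at 0.819 TPM, and Cfd, factor D, at 3.23 TPM. The summed share of the 32 genes was 1.5%, 1.62% and 1.53% in the FGL00 mice and 1.48%, 1.63% and 1.55% in the MGL00 mice, against 1.12%, 1.10% and 1.10% in the FGL40 mice and 1.01%, 0.960% and 0.965% in the MGL40 mice. In each sex every GL00 liver was above every GL40 liver, and above every WT00 liver, which had 1.07% to 1.17% in females and 1.02% to 1.14% in males. C3 alone took 0.482% to 0.562% in FGL00 livers and 0.333% to 0.354% in FGL40 livers.

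The 250 bases before the start of 5 members are printed here, C3 as the most abundant gene that rose in both sexes and C6, C8a, C8b and C9 as the terminal genes whose values differed most between the sexes. The sequences are from RefSeq (build GRCm38.p6, an earlier build than that of the expression table), which had an entry for 24 of the 32 members. Capitals mark 2 motifs searched on both strands, TTCNNNGAA, a STAT site, and TTNCNNAA, a C/EBP site, with N for any base; no match of one overlapped a match of the other. C3 is on the minus strand at chr17:57228137-57228386, C6 on the plus strand at chr15:4726960-4727209, C8a on the minus strand at chr4:104876399-104876648, C8b on the plus strand at chr4:104766067-104766316 and C9 on the plus strand at chr15:6445096-6445345, each read 5′ to 3′ towards its start.
C3: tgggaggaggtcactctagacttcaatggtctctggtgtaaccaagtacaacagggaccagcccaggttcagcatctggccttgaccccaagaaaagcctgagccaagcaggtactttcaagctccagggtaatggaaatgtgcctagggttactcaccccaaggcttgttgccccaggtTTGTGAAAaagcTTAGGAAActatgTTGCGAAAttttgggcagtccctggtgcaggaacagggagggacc
C6: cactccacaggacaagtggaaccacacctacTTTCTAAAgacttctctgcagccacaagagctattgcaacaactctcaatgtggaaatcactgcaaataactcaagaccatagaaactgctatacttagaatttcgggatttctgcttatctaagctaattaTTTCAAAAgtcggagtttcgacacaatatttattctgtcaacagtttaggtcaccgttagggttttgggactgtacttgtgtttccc
C8a: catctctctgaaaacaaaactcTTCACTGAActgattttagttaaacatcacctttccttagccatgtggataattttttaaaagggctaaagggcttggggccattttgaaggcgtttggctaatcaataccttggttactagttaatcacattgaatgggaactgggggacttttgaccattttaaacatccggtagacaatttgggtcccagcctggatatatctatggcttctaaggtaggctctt
C8b: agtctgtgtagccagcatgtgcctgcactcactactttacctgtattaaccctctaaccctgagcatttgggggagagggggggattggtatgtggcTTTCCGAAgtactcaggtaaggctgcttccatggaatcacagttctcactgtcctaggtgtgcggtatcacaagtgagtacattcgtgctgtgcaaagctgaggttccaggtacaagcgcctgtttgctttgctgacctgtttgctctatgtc
C9: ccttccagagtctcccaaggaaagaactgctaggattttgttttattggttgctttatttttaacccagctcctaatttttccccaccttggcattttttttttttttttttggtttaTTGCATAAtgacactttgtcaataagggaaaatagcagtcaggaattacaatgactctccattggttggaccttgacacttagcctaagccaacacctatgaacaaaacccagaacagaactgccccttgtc

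C3 held 3 matches to the C/EBP motif within its last 70 bases, C6 held 2, C8b and C9 held 1 each, and C8a held 1 match to the STAT motif, 228 bases before its start. Over the 300 bases from 250 before to 50 after the start, the STAT motif was found in 4 of the 24 members with an entry (C8a, Masp2, C1ra and Vtn) and in 8.3% of 32851 promoters, and the C/EBP motif in 11 of the 24 members and in 40.7% of promoters. A match is a description of the letters and says nothing of a factor's binding.

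The first question was whether complement transcripts differed between ascorbate-depleted and supplemented Gulo-/- mice. In females 10 of the 32 genes were higher and 3 were lower in GL00 than in GL40, against 9.56% and 13.7% of the 18050 genes tested. In males 13 of the 32 were higher and 3 lower, against 9.85% and 2.45% of 17661 genes. A gene was called when its Benjamini-Hochberg adjusted p from limma, over all genes tested in that model, was under 0.05. The median log2 fold change of the 32 was 0.20 in females and 0.40 in males, beside -0.02 and 0.07 for all genes tested. In the genes whose mean reached 10 TPM, 28 of which are members, the background was 14.1% higher and 22.1% lower in females and 16.3% higher and 4.03% lower in males. Leaving out FGL40-2695 gave 12 calls in females. After median-ratio scaling 10 members were higher and 3 lower in each sex, against 12.3% and 12.9% of genes in females and 4.08% and 5.15% in males. Without the Mup genes, a family of abundant urinary protein genes, the counts were again 10 and 3 in each sex, against 8.1% and 15.9% in females and 4.16% and 4.62% in males. With both sexes in a model with sex as a term, 16 were higher and 3 lower, against 13.1% and 8.51% of 17721 genes. Median-ratio scaling gave 14 and 3, against 11.4% and 12%, and the rescaling without the Mup genes 10 and 3, against 8.15% and 14.1%. Without FGL40-2695, 17 members were called with the sexes together.

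Markers of blood cells moved with this comparison, with calls in both sexes for monocyte genes (3 of 6 higher in females, 4 of 6 in males). Of 10 neutrophil genes 8 could be tested in females, with 7 called higher and none lower in GL00, and 7 in males, with none called. With the sexes together all 8 neutrophil genes tested were called higher, against 13.1% of all genes. Their difference between the sexes was called for 3 of 8, higher in females, against 2.39% of all genes. Of 7 erythroid genes 5 could be tested and all 5 were called higher, with sums of 1933 to 3428 TPM in FGL00 livers, against 627 to 753 TPM in FGL40 livers, and in males none was called higher and 1 lower. FGL00-2788 stood apart from its mates, with 91.5 TPM of sinusoidal endothelium markers beside 177 and 210.2 TPM, and with the lowest Kupffer cell sum (318 TPM) and stellate cell sum (161 TPM) of the 3. Their part in the member values was not tested.

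**Figure D1:**
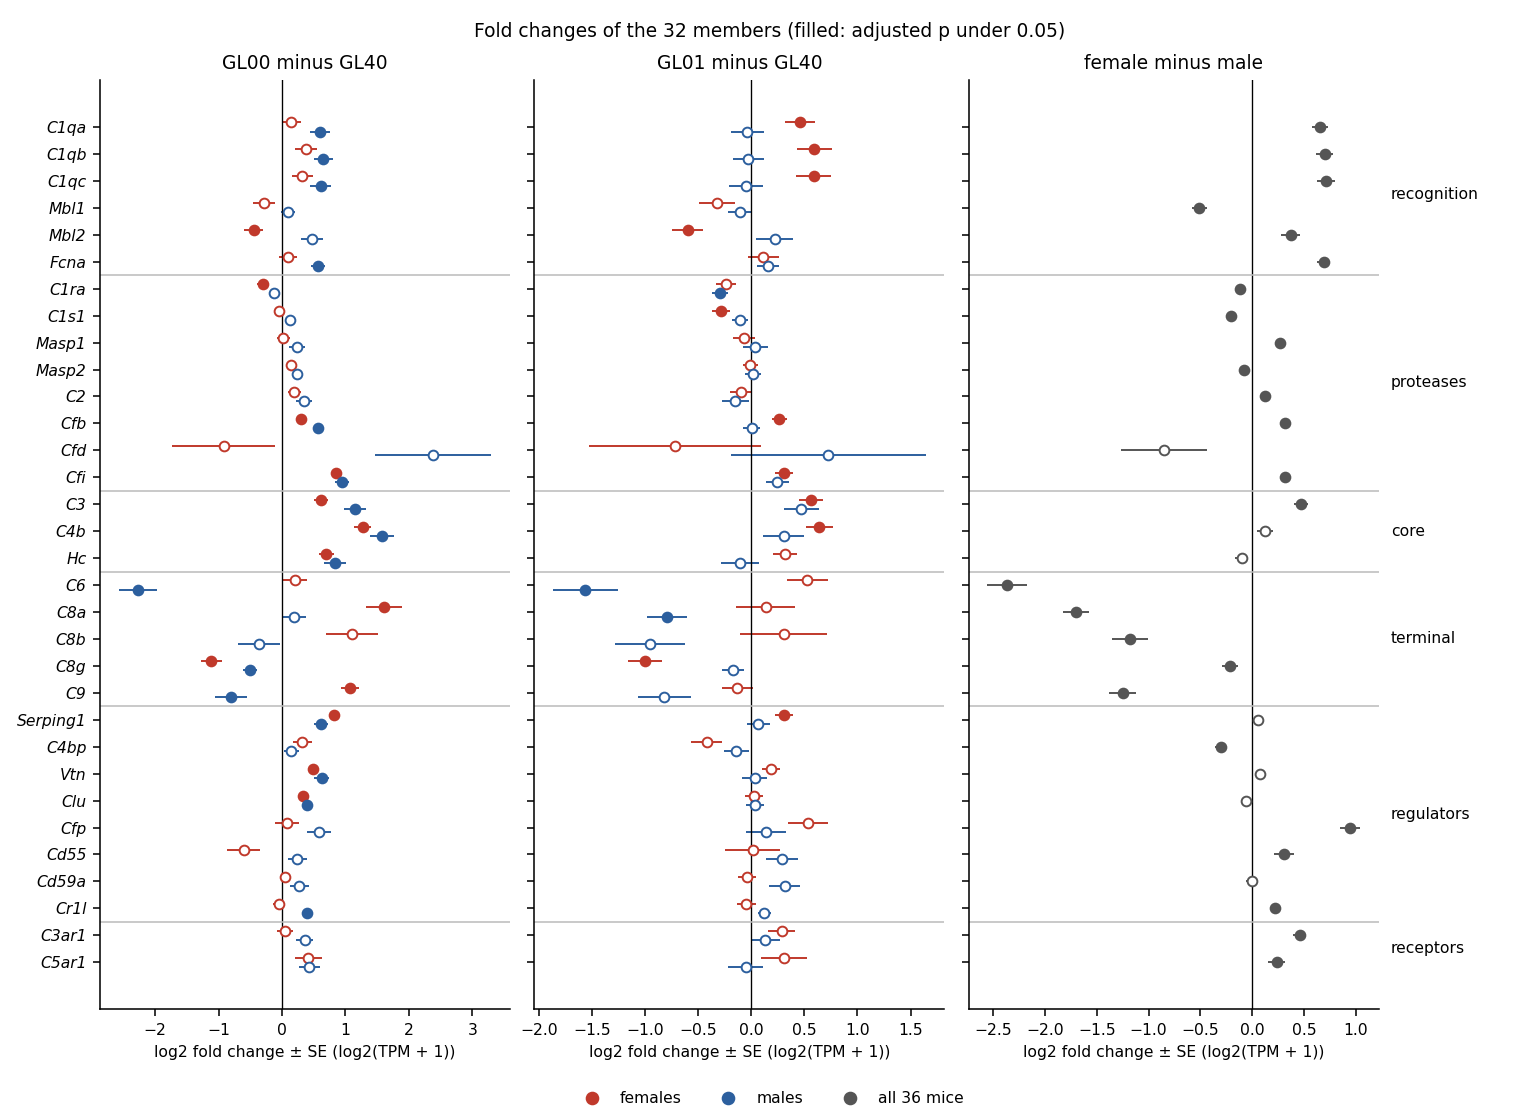
Log2 fold changes on the log2(TPM + 1) scale, with the standard error as a bar, of the 32 members by role, from limma: GL00 minus GL40 and GL01 minus GL40 in females (red) and males (blue), and female minus male over 36 mice (grey). Filled points have an adjusted p under 0.05; C4b, Cfi, C3, Hc, Serping1, Vtn, Cfb and Clu lie right of 0 in both sexes in GL00, and C6 has the lowest value, -2.27, in males.

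In GL00, 8 members were called higher in females and again in males, beside 9.56% of all genes higher in females and 9.85% in males. The share of all genes called higher in both sexes was not counted. C4b, the gene of C4, the component shared by the classical and lectin routes, had 1101, 1044 and 961 TPM in FGL00 livers, against 453, 393 and 437 TPM in FGL40 livers. In males it had 959.9, 1208 and 1228 TPM in MGL00 livers, against 378, 363 and 386 TPM in MGL40 livers. The cohorts did not overlap in either sex, and the log2 fold change was 1.27 ± 0.13 (SE) in females (adjusted p = 2.63e-05) and 1.58 ± 0.19 in males (adjusted p = 0.000205). Absence of overlap between GL00 and GL40 was common, at 42.1% of all genes tested in females and 32.2% in males. C4b has a near copy, C4a, which is not analysed here, so that reads of the pair could have been assigned to C4b and its level is uncertain in that respect.

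C3 itself was measured at 4819, 5616 and 5412 TPM in FGL00 livers, against 3539, 3330.4 and 3428 TPM in FGL40 livers. In MGL00 livers it had 4590.0, 4810.4 and 4778 TPM, against 2107, 2158 and 2115 TPM in MGL40 livers. The 3 supplemented males were close to each other and well below the 3 depleted males, and the log2 fold change was 0.62 ± 0.11 in females (adjusted p = 0.00129) and 1.15 ± 0.17 in males (adjusted p = 0.000733). The difference of these changes between the sexes was -0.53 ± 0.21 and was not called (adjusted p = 0.0904). Hc, which encodes C5, the component whose cleavage starts pore assembly, had 403, 372 and 361 TPM in FGL00 livers, against 231, 229 and 239 TPM in FGL40 livers. It had 430.4, 461 and 494 TPM in MGL00 livers, against 274, 244 and 254 TPM in MGL40 livers. Its groups did not overlap in either sex, with log2 fold changes of 0.70 ± 0.12 in females (adjusted p = 0.000655) and 0.84 ± 0.18 in males (adjusted p = 0.00726).

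Among the regulators of these steps, Cfi and Serping1 were called higher in both sexes. Cfi encodes factor I, the protease that cleaves C3b and C4b, and had 744, 749.5 and 680.5 TPM in FGL00 livers, against 396, 406 and 401 TPM in FGL40 livers. In males it had 605, 625 and 626 TPM in MGL00 livers, against 314, 321 and 324 TPM in MGL40 livers. The groups were apart in both sexes, and its log2 fold change was 0.85 ± 0.08 in females (adjusted p = 1.39e-05) and 0.95 ± 0.11 in males (adjusted p = 0.000137). Serping1, the C1 inhibitor that blocks C1r, C1s and the MASPs, had 880.3, 896 and 887 TPM in FGL00 livers, against 493, 507 and 499.8 TPM in FGL40 livers. In MGL00 livers it had 681, 859 and 758 TPM, against 494, 481 and 524 TPM in MGL40 livers. Its rise was 0.83 ± 0.09 on the log2 scale in females (adjusted p = 2.75e-05) and 0.61 ± 0.11 in males (adjusted p = 0.00314), with no overlap of the groups.

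Vtn and Clu, whose products hold the forming pore complex in solution, were also called higher in both sexes. Vtn had 2345, 2505 and 2314 TPM in FGL00 livers, against 1649, 1785 and 1657 TPM in FGL40 livers, and 2326, 2645 and 2394 TPM in MGL00 livers, against 1719, 1554 and 1502 TPM in MGL40 livers. Its log2 fold change was 0.49 ± 0.08 in females (adjusted p = 0.000756) and 0.63 ± 0.12 in males (adjusted p = 0.00423). Clu had 1309.6, 1290.5 and 1323 TPM in FGL00 livers, against 1023, 1045 and 1040.1 TPM in FGL40 livers, and 1302, 1478 and 1442 TPM in MGL00 livers, against 1132, 1058 and 1015 TPM in MGL40 livers. That was 0.34 ± 0.09 in females (adjusted p = 0.011) and 0.40 ± 0.08 in males (adjusted p = 0.00755), and in males the call was lost under median-ratio scaling (0.26, adjusted p = 0.0932) and without the Mup genes (0.26, adjusted p = 0.0677). Cfb, the protease subunit of the alternative route's C3 convertase, had 994, 1005 and 901 TPM in FGL00 livers, against 777, 789.7 and 787 TPM in FGL40 livers, and 923, 942 and 968 TPM in MGL00 livers, against 692, 613 and 599 TPM in MGL40 livers. Its log2 fold change was 0.30 ± 0.07 in females (adjusted p = 0.00873) and 0.58 ± 0.08 in males (adjusted p = 0.000593).

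**Figure D2:**
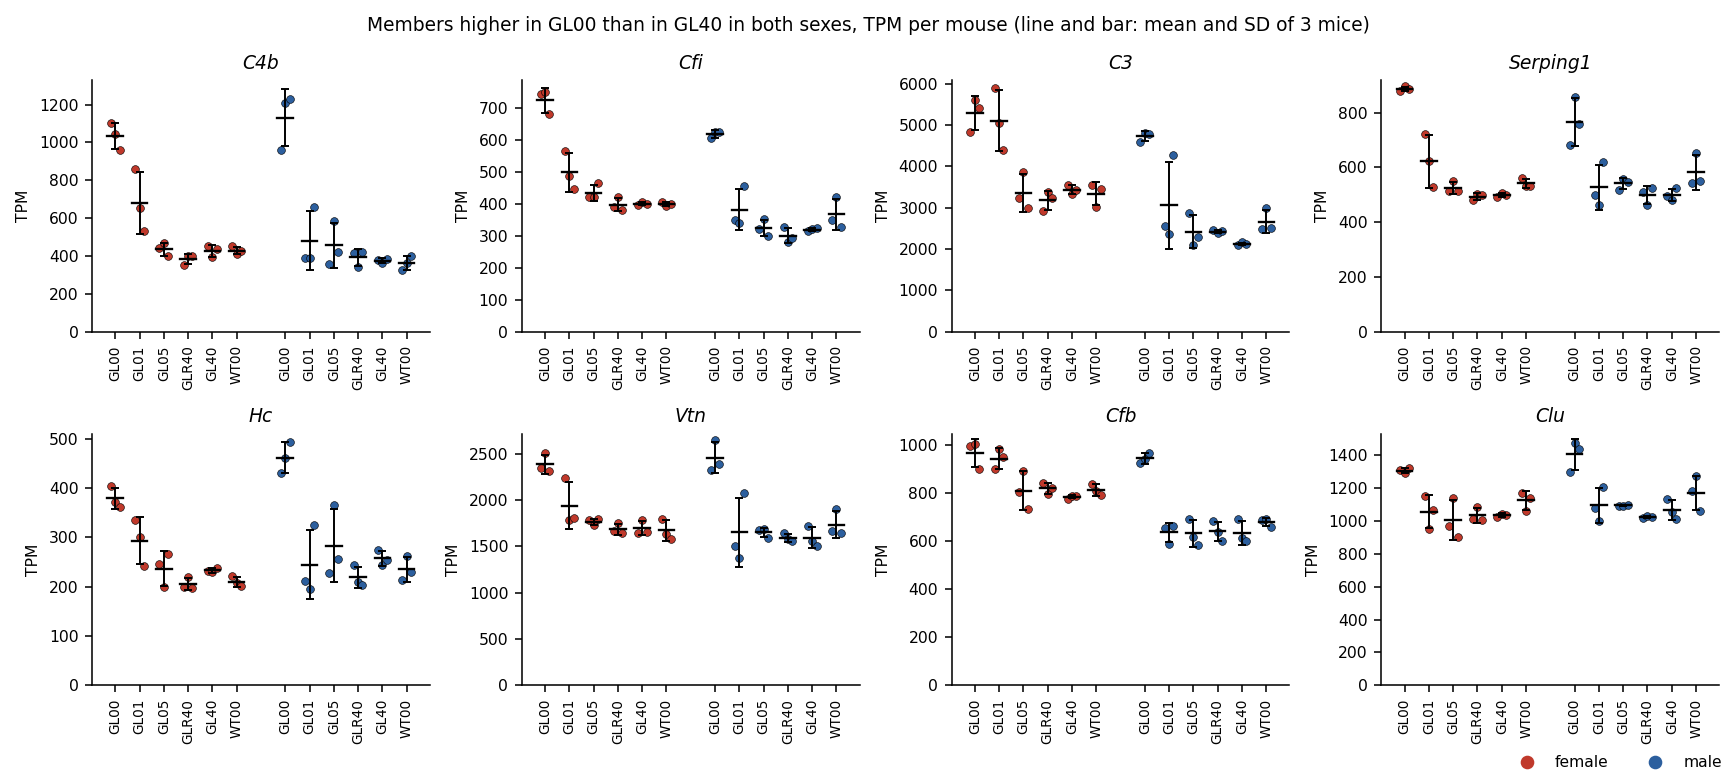
TPM of 8 members in each of the 36 mice, females in red and males in blue, by cohort; lines and bars are the mean and SD of 3 mice. For each gene the GL00 points lie above the GL40 points in both sexes, from 1101, 1044 and 961 TPM against 453, 393 and 437 TPM for C4b in females to smaller steps for Clu; 1 MGL01 mouse lies above its 2 mates for most of the 8 genes.

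The terminal components did not follow 1 pattern. C9, the unit that polymerizes into the pore, had 133, 130.0 and 129 TPM in FGL00 livers, against 69.6, 58.9 and 56.9 TPM in FGL40 livers, a rise of 1.07 ± 0.14 on the log2 scale (adjusted p = 0.000165). In males it fell: 139, 155 and 109.8 TPM in MGL00 livers, against 273, 211 and 223 TPM in MGL40 livers, a log2 fold change of -0.81 ± 0.25 (adjusted p = 0.0461). The groups did not overlap in either sex. The male call was narrow: leaving out any 1 of the 6 mice ended it, with adjusted p between 0.0597 and 0.169. The test of the difference between the sexes gave 1.88 ± 0.30 (adjusted p = 0.000157).

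C6, which joins C5b at the start of the pore, was called in males and not in females. In females it had 9.79, 15.1 and 14.7 TPM in FGL00 livers, against 11.1, 12.3 and 10.1 TPM in FGL40 livers (0.20 ± 0.19, adjusted p = 0.501), and the cohorts overlapped. Males had 30.8, 32.1 and 18.8 TPM in MGL00 livers, against 162, 139 and 102 TPM in MGL40 livers, a log2 fold change of -2.27 ± 0.30 (adjusted p = 0.000424), the largest fall among the 32 genes in this comparison. The difference of the changes between the sexes was 2.47 ± 0.38 (adjusted p = 0.000109). C8a, the alpha chain of C8, rose in females, with 144, 166 and 147 TPM in FGL00 livers, against 54.0, 56.3 and 39.1 TPM in FGL40 livers (1.61 ± 0.28, adjusted p = 0.000905). Males had 238, 352 and 273 TPM in MGL00 livers, against 294, 239 and 220.5 TPM in MGL40 livers, with overlap (0.19 ± 0.19, adjusted p = 0.574), and the sexes differed by 1.42 ± 0.35 (adjusted p = 0.00777).

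C8b, the beta chain, had 70.9, 92.5 and 82.9 TPM in FGL00 livers, against 33.6, 45.5 and 34.9 TPM in FGL40 livers, without overlap, yet was not called at 1.10 ± 0.41 (adjusted p = 0.0665). Its values in males were 99.1, 130.3 and 92.9 TPM in MGL00 livers, against 182, 142 and 99.9 TPM in MGL40 livers, which overlapped (-0.37 ± 0.33, adjusted p = 0.521), and the difference between the sexes, 1.46 ± 0.55, was not called (adjusted p = 0.0787). C8g, the gamma chain, a lipocalin that is bound to the alpha chain in the secreted protein, went the other way. It had 172, 164 and 173 TPM in FGL00 livers, against 378, 356 and 369 TPM in FGL40 livers, and 263, 257 and 220.4 TPM in MGL00 livers, against 363, 329 and 358 TPM in MGL40 livers. The depleted livers were lower in both sexes with no overlap, by -1.11 ± 0.16 in females (adjusted p = 0.000258) and -0.51 ± 0.10 in males (adjusted p = 0.00643). The difference between the sexes, -0.61 ± 0.19, was called (adjusted p = 0.0371) but not under 3 of 7 other settings, median-ratio scaling among them (-0.42, adjusted p = 0.168), nor without 9 of the 12 mice in turn (adjusted p = 0.0542 to 0.0882), all but FGL40-2695, MGL00-2787 and MGL40-2690. The ratio of C8g to C8a TPM was 1.19, 0.988 and 1.18 in FGL00 livers, against 7.0, 6.32 and 9.44 in FGL40 livers, and 1.11, 0.731 and 0.808 in MGL00 livers, against 1.24, 1.38 and 1.62 in MGL40 livers.

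**Figure D3:**
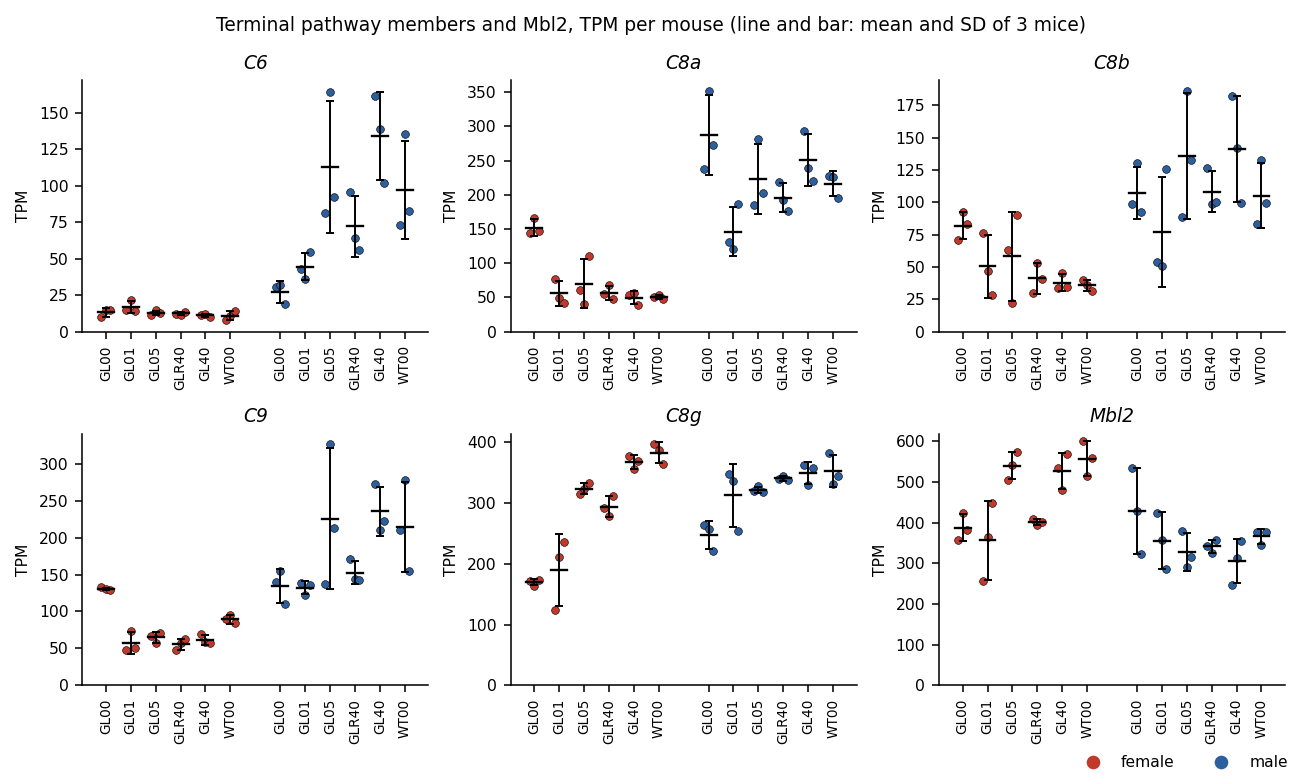
TPM of C6, C8a, C8b, C9, C8g and Mbl2 in each mouse, females in red and males in blue, by cohort; lines and bars are the mean and SD of 3 mice. C9 was 133, 130.0 and 129 TPM in FGL00 livers and 69.6, 58.9 and 56.9 TPM in FGL40 livers, while in males the GL00 points lie under the GL40 points; C6 is low in all females, and C8g is lower in GL00 than in GL40 in both sexes.

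C1qa, C1qb and C1qc, the 3 chains of C1q, are made by macrophages, in the liver mostly Kupffer cells. C1qb had 71.7, 117 and 114 TPM in FGL00 livers, against 75.6, 77.7 and 72.9 TPM in FGL40 livers, and 74.1, 81.5 and 64.8 TPM in MGL00 livers, against 42.3, 43.7 and 53.4 TPM in MGL40 livers. In males the cohorts did not overlap, while in females FGL00-2788 lay below all 3 FGL40 mice and the other 2 above them. C1qa had 63.6, 91.1 and 88.1 TPM in FGL00 livers, against 71.7, 76.1 and 68.2 TPM in FGL40 livers, and 68.0, 76.4 and 57.2 TPM in MGL00 livers, against 39.0, 41.8 and 50.7 TPM in MGL40 livers. C1qc had 62.5, 106 and 93.4 TPM in FGL00 livers, against 70.8, 70.7 and 62.9 TPM in FGL40 livers, and 63.5, 70.3 and 56.1 TPM in MGL00 livers, against 36.9, 37.8 and 48.9 TPM in MGL40 livers. The 3 chains rose in males, by 0.60 ± 0.16 for C1qa (adjusted p = 0.0206), 0.65 ± 0.15 for C1qb (adjusted p = 0.0102) and 0.61 ± 0.16 for C1qc (adjusted p = 0.0225), and were not called in females at 0.15 ± 0.14, 0.38 ± 0.17 and 0.32 ± 0.17 (adjusted p = 0.502, 0.121 and 0.188). The male calls of C1qa and C1qc were lost under median-ratio scaling (adjusted p = 0.0798 and 0.0809) and without any 1 of MGL00-2783, MGL00-2784, MGL40-2690 and MGL40-2691, and no difference between the sexes was called for any chain, with the smallest adjusted p at 0.183. With the sexes together all 3 were called higher, at 0.38 for C1qa, 0.52 for C1qb and 0.47 for C1qc. These calls held in 2, 12 and 9 of 12 fits with 1 mouse left out, and under 6, 8 and 7 of 8 other settings.

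Kupffer cell markers moved alongside the C1q chains. Of 10 marker genes, all above 0 in all 36 mice and 1 of them, Vsig4, itself a complement receptor, 6 were called higher and none lower in GL00 than in GL40 in males, and none was called in females. Their summed level was 298 to 345 TPM in MGL00 livers, against 181 to 241 TPM in MGL40 livers, and 318 to 511 TPM in FGL00 livers, against 348 to 386 TPM in FGL40 livers. The summed C1q chains per summed Kupffer marker TPM stayed between 0.539 and 0.689 in all 36 mice. In males this ratio was 0.598 to 0.689 in MGL00 livers, against 0.629 to 0.653 in MGL40 livers, with overlap. In females it was 0.593 to 0.622 in FGL00 livers, against 0.581 to 0.586 in FGL40 livers, without overlap. Whether the number of Kupffer cells or their RNA content changed was not tested.

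**Figure D4:**
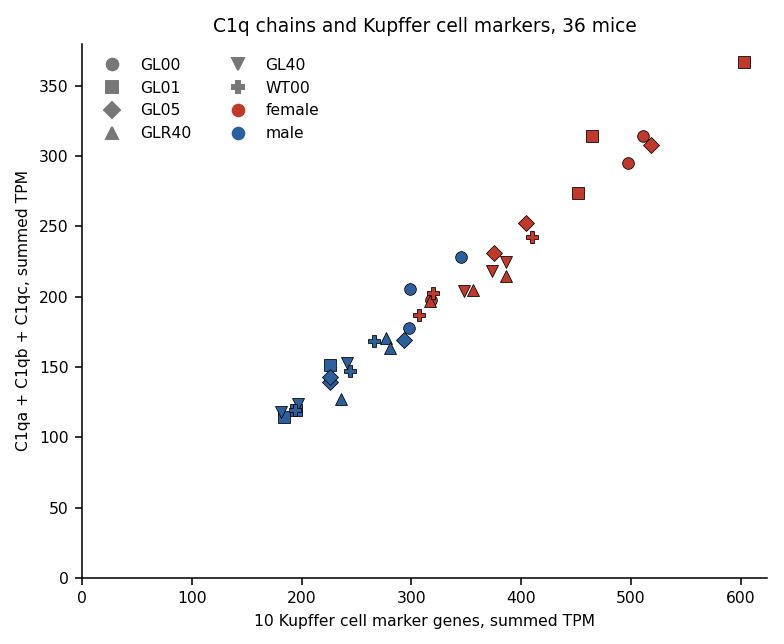
Summed TPM of C1qa, C1qb and C1qc (y axis) against the summed TPM of 10 Kupffer cell marker genes (x axis) in each of 36 mice; colour gives the sex and the symbol the cohort. The ratio of the sums lies between 0.539 and 0.689, and FGL01-2723 is highest on both axes, with 603 TPM of markers.

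Fcna, ficolin A, a lectin that mouse macrophages make, had 45.6, 69.8 and 71.6 TPM in FGL00 livers, against 57.5, 57.7 and 55.8 TPM in FGL40 livers, and 47.4, 48.0 and 57.5 TPM in MGL00 livers, against 35.9, 34.9 and 31.4 TPM in MGL40 livers. The male cohorts did not overlap (0.56 ± 0.11, adjusted p = 0.00368), the female ones did (0.10 ± 0.14, adjusted p = 0.685). The difference between the sexes was not called for Fcna. With the sexes together it was called higher, at 0.33 on the log2 scale. That call held under 6 of 8 other settings and in 11 of 12 fits with 1 mouse left out. Mbl2, the lectin MBL-C that hepatocytes secrete, had 357, 422 and 381 TPM in FGL00 livers, against 533, 480.0 and 568 TPM in FGL40 livers, with no overlap, and fell by 0.45 ± 0.15 on the log2 scale (adjusted p = 0.0381). That call was lost without FGL00-2788, FGL00-2791, FGL40-2694 or FGL40-2696 (adjusted p = 0.0917 to 0.127) and without a filter on low values. In males it had 535, 428 and 324 TPM in MGL00 livers, against 247, 314 and 354 TPM in MGL40 livers (0.48 ± 0.18, adjusted p = 0.091), with overlap, and the sexes differed by -0.92 ± 0.24 (adjusted p = 0.0097). Mbl1, the related MBL-A, was not called, with 114, 105 and 113 TPM in FGL00 livers, against 145, 128 and 132 TPM in FGL40 livers, and 162, 239 and 203 TPM in MGL00 livers, against 201, 170.1 and 188 TPM in MGL40 livers.

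Among the proteases of the classical and lectin routes the values moved little. C1ra, the C1r protease, had 94.7, 109.6 and 103 TPM in FGL00 livers, against 123, 132 and 126 TPM in FGL40 livers, a log2 fold change of -0.31 ± 0.09 (adjusted p = 0.0271); leaving out any mouse of the 2 cohorts other than FGL00-2790 ended the call, with adjusted p up to 0.111. Males had 133, 134 and 126 TPM in MGL00 livers, against 155, 138 and 137 TPM in MGL40 livers (-0.13 ± 0.08, adjusted p = 0.317). C1s1, the C1s protease activated by C1r, had 244, 263 and 252 TPM in FGL00 livers, against 256, 273 and 254 TPM in FGL40 livers, and 333, 321 and 329 TPM in MGL00 livers, against 284, 289.9 and 322 TPM in MGL40 livers, and was not called in GL00. C1ra and C1s1 each have a near copy, C1rb and C1s2, to which reads could have been assigned. C2, the protease of the classical C3 convertase, had 81.4, 93.1 and 73.7 TPM in FGL00 livers, against 69.99, 67.7 and 78.5 TPM in FGL40 livers, and 80.3, 84.8 and 85.8 TPM in MGL00 livers, against 66.6, 66.0 and 63.8 TPM in MGL40 livers. Masp2, the protease bound to the lectins, had 216, 194 and 209 TPM in FGL00 livers, against 194, 182 and 183 TPM in FGL40 livers, and 209, 247 and 234 TPM in MGL00 livers, against 206, 185 and 193 TPM in MGL40 livers. Both were called higher only with the sexes together, by 0.27 ± 0.09 for C2 (adjusted p = 0.0218) and 0.19 ± 0.05 for Masp2 (adjusted p = 0.00645), and both calls were lost under median-ratio scaling (adjusted p = 0.0594 and 0.0829). Masp1, the partner of Masp2, ranged from 39.9 to 73.3 TPM over the 36 mice and was not called in GL00.

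The remaining members were mostly not called. Cr1l, the gene of Crry, a membrane regulator of rodent cells, had 32.9, 38.2 and 38.1 TPM in FGL00 livers, against 39.6, 36.8 and 36.2 TPM in FGL40 livers (-0.04 ± 0.09, adjusted p = 0.775). In males it had 37.3, 40.3 and 42.7 TPM in MGL00 livers, against 30.6, 29.6 and 30.1 TPM in MGL40 livers (0.40 ± 0.06, adjusted p = 0.00109), and the difference between the sexes was -0.44 ± 0.10 (adjusted p = 0.00456), not called under median-ratio scaling (adjusted p = 0.145). C5ar1, the C5a receptor of myeloid cells, had 0.906, 1.72 and 1.81 TPM in FGL00 livers, against 1.57, 0.578 and 0.516 TPM in FGL40 livers, and 1.21, 1.26 and 0.960 TPM in MGL00 livers, against 0.595, 0.394 and 0.786 TPM in MGL40 livers, and was called only with the sexes together (0.42 ± 0.14, adjusted p = 0.033). That call was lost under 3 of 8 other settings and without 7 of 12 mice in turn (adjusted p up to 0.0893), namely FGL00-2790, FGL00-2791, FGL40-2695, FGL40-2696, MGL00-2783, MGL00-2784 and MGL40-2691, and the value was 0.83 with a pseudocount of 0.1. Neutrophil markers, 10 genes, summed to 46.5 to 92.5 TPM in FGL00 livers, against 11.99 to 14.2 TPM in FGL40 livers, and to 10.8 to 21.8 TPM in MGL00 livers, against 4.35 to 10.6 TPM in MGL40 livers. Of 6 monocyte markers 3 were called higher in females and 4 in males, with sums of 17.3 to 29.7 TPM in FGL00 livers, against 12.5 to 17.6 TPM in FGL40 livers, and 14.9 to 18.2 TPM in MGL00 livers, against 7.18 to 10.7 TPM in MGL40 livers. The part of these cells in the result was not tested. Cfp, properdin, which stabilizes the alternative C3 convertase and is made by myeloid cells, C4bp, a cofactor of factor I, C3ar1, Cd55 and Cd59a, which protect cell membranes, were not called in GL00 in either sex. Over the 36 mice Cfp ranged from 16.0 to 72.1 TPM, C4bp from 144.9 to 352 TPM, C3ar1 from 0.713 to 2.75 TPM, Cd55 from 3.62 to 13.1 TPM and Cd59a, which has a near copy in Cd59b, from 44.4 to 77.5 TPM.

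Cfd, the rate-limiting protease of the alternative route, known as adipsin for its high level in fat, varied widely between mates. It had 0.323, 0.409 and 0.302 TPM in FGL00 livers, against 0.139, 13.4 and 0 TPM in FGL40 livers, and 2.55, 25.6 and 28.1 TPM in MGL00 livers, against 0, 0.728 and 10.2 TPM in MGL40 livers. No comparison between diets or sexes called it. The 13.4 TPM belonged to FGL40-2695, the mouse with pancreatic transcripts, in which Adipoq, the adipocyte gene of adiponectin, was at 2.02 TPM, and the MGL40 mouse with 10.2 TPM had 8.02 TPM of Adipoq. In the 3 MGL00 livers Adipoq was listed at 0. The sum of all 7 adipocyte markers was 835, 1036 and 835 TPM in MGL00 livers, against 1433, 1327 and 1949 TPM in MGL40 livers, with 1 of the 4 genes tested called higher and none lower, and in FGL40-2695 it was 635 TPM, the lowest of its cohort. In the mice whose Adipoq is given, it made up little or none of this sum, and how far the sum follows adipocyte content was not tested. The part of these genes in the Cfd values was not tested.

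The 0.01% dose was the next question, in mice with little ascorbate from weaning on. In females 8 members were higher and 3 lower in GL01 than in GL40, against 14.3% and 5.58% of genes. After median-ratio scaling this split turned to 2 higher and 5 lower, against 7.52% and 9.83% of genes, and without the Mup genes to 5 and 5, against 11.4% and 6.28%. Without FGL40-2695, 9 members were called. C4b had 857, 651 and 530.0 TPM in FGL01 livers, against 453, 393 and 437 TPM in FGL40 livers (0.64 ± 0.13, adjusted p = 0.00359), and C3 had 5888, 5041 and 4395 TPM in FGL01 livers, against 3539, 3330.4 and 3428 TPM in FGL40 livers (0.56 ± 0.11, adjusted p = 0.00333). Each FGL01 mouse was above each FGL40 mouse for both genes, as for 26.2% of all genes tested. Cfi at 0.31 ± 0.08, Serping1 at 0.31 ± 0.09 and Cfb at 0.26 ± 0.07 were called too, but not after median-ratio scaling (adjusted p = 0.301, 0.320 and 0.275). Their calls held in 4, 2 and 2 of 6 fits with 1 mouse left out, and under 6, 5 and 5 of 8 other settings.

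Lower values were found for C8g, with 123, 211 and 236 TPM in FGL01 livers, against 378, 356 and 369 TPM in FGL40 livers (-1.0 ± 0.16, adjusted p = 0.000741). Mbl2 had 255, 364 and 449 TPM in FGL01 livers, against 533, 480.0 and 568 TPM in FGL40 livers (-0.60 ± 0.15, adjusted p = 0.0102), and C1s1 had 186, 228 and 231 TPM in FGL01 livers, against 256, 273 and 254 TPM in FGL40 livers (-0.29 ± 0.08, adjusted p = 0.0259). The calls of Mbl2 and, among the higher members, C4b were lost with only the 2 cohorts fitted (adjusted p = 0.0957 and 0.0572). The C1s1 call was lost in that fit as well (adjusted p = 0.134) and without FGL01-2722, FGL40-2694, FGL40-2695 or FGL40-2696 (adjusted p = 0.0524 to 0.0944). C8g, Mbl2 and C1s1 were lower in every FGL01 mouse than in every FGL40 mouse, as were 9.55% of all genes tested. The mean of each C1q chain was the highest of the 12 groups here: C1qb had 114, 136 and 96.9 TPM in FGL01 livers, against 75.6, 77.7 and 72.9 TPM in FGL40 livers (0.59 ± 0.17, adjusted p = 0.0216), with C1qa at 0.46 ± 0.14 (adjusted p = 0.0338) and C1qc at 0.59 ± 0.17 (adjusted p = 0.0227). With each of 6 mice left out in turn, the call held in 1 fit for C1qa, 3 for C1qb and 2 for C1qc. Of 8 other settings, it held in 5 for C1qa, 7 for C1qb and 7 for C1qc. Kupffer markers summed to 452 to 603 TPM in FGL01 livers and 348 to 386 TPM in FGL40 livers, with 3 of 10 genes called higher. The C1q chains per Kupffer marker TPM were 0.606 to 0.676 in FGL01 livers, against 0.581 to 0.586 in FGL40 livers, without overlap. None of the 3 chains was called after median-ratio scaling (adjusted p = 0.0553 to 0.0917). C8a and C9, which rose in FGL00 livers, were not called in FGL01 livers, with C9 at 47.8, 73.6 and 50.4 TPM and C8a at 77.3, 48.6 and 42.0 TPM.

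In males no member was called higher and 3 were called lower in GL01 than in GL40, against 1.96% and 1.46% of genes. C6 had 43.0, 36.2 and 54.4 TPM in MGL01 livers, against 162, 139 and 102 TPM in MGL40 livers (-1.56 ± 0.30, adjusted p = 0.0129), C8a had 131, 120.3 and 187 TPM in MGL01 livers, against 294, 239 and 220.5 TPM in MGL40 livers (-0.79 ± 0.19, adjusted p = 0.0325), and C1ra had 117, 108 and 125 TPM in MGL01 livers, against 155, 138 and 137 TPM in MGL40 livers (-0.29 ± 0.08, adjusted p = 0.0486). Leaving out MGL01-2712 or MGL40-2690 ended all 3 calls. Of the 6 fits with 1 mouse left out, 4 kept the call of C6, 2 that of C8a and 1 that of C1ra. Of 8 other settings, 8 kept the call of C6, 6 that of C8a and 6 that of C1ra. The third male stood apart in the members that rose in GL00: C3 was 2549, 2358 and 4275 TPM in MGL01 livers, C4b 389.6, 391 and 659 TPM, Vtn 1504, 1371 and 2076 TPM and Hc 212, 196 and 325 TPM, the highest value in each case in MGL01-2713. None of these 4 was called, and without MGL01-2713 the count of called members was 4. Median-ratio scaling and the scaling without the Mup genes each left 0 higher and 3 lower, against 1.32% and 1.96% and against 0.952% and 2.89% of genes.

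With both sexes together 3 members were higher (C3, C4b and Cfi) and 4 lower (C8g, C1ra, C1s1 and C4bp) in GL01 than in GL40, against 15.4% and 4.84% of genes; median-ratio scaling left 1 higher and 4 lower, against 7.53% and 9.67%, and the scaling without Mup genes 2 and 4, against 8.19% and 7.63%. The count of 7 was 6 without FGL40-2695 and 7 without MGL01-2713. C4bp had 179, 179 and 145 TPM in FGL01 livers, against 263, 202 and 211 TPM in FGL40 livers, and 245, 242 and 261 TPM in MGL01 livers, against 261, 259 and 307 TPM in MGL40 livers. At -0.28 ± 0.10 (adjusted p = 0.0476) it had the largest adjusted p of the 7 calls. The call was lost when low values were not filtered (adjusted p = 0.0697), with only the 2 cohorts fitted (0.0629) and with array weights (0.0506), and without FGL01-2722, FGL01-2723, FGL01-2724, FGL40-2694, FGL40-2696, MGL40-2690 or MGL40-2719 (adjusted p = 0.0547 to 0.150). The C1s1 call was lost with only the 2 cohorts fitted (adjusted p = 0.0983), with array weights (0.0597) and without FGL01-2722, FGL01-2723, FGL40-2694, FGL40-2695 or MGL40-2719 (adjusted p = 0.0525 to 0.128). GL00 and GL01 were both compared with the same GL40 mice, so their fold changes are not independent.

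The 0.05% dose, the return of ascorbate and the genotype gave no called member in either sex by limma. GL05 differed from GL40 in 0 of 32 members in females and in males, against 0% of all genes in females and 0.0566% in males at the same adjusted p. For GLR40 minus GL40 the count was 0 in females, against 2.27% of all genes, and 0 in males, against 0.00566%. For GL40 minus WT00 it was 0 in females, against 0.183%, and 0 in males, against 0.453%. At an unadjusted p under 0.05, GL05 minus GL40 had 0 members in females and 0 in males, against 4.44% and 8.89% of all genes. GLR40 minus GL40 had 2 members in females and 3 in males at that p, against 19.3% and 9.64%, and GL40 minus WT00 had 2 in females and 1 in males, against 7.53% and 13%. C4b had 441, 467 and 399.5 TPM in FGL05 livers and 359, 585 and 422 TPM in MGL05 livers, where 2 mice lay above all 3 MGL40 mice. It had 352, 399 and 398 TPM in FGLR40 livers, against 453, 393 and 437 TPM in FGL40 livers, which in turn stood beside 451, 411 and 424 TPM in FWT00 livers. In males the same gene had 417, 343 and 419.6 TPM in MGLR40 livers, against 378, 363 and 386 TPM in MGL40 livers, beside 327, 361 and 402 TPM in MWT00 livers.

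The closest to a call in the returned cohort were C2 and Mbl2 in females. Mbl2 was -0.39 ± 0.15 in FGLR40 against FGL40 livers (adjusted p = 0.156) and C2 -0.30 ± 0.10 (adjusted p = 0.117). The count was 2 when only these 2 cohorts were fitted, and 1 with array weights. C8g was 292, 279 and 312 TPM in FGLR40 livers, against 378, 356 and 369 TPM in FGL40 livers, with no overlap, a log2 fold change of -0.32 ± 0.16 (adjusted p = 0.288). In males C6 had 96.1, 64.1 and 56.1 TPM in MGLR40 livers, against 162, 139 and 102 TPM in MGL40 livers (-0.90 ± 0.30, adjusted p = 0.359). Against wild type, Cd59a, which blocks C9 insertion, was at 58.1, 55.5 and 54.0 TPM in FGL40 livers, against 77.5, 66.1 and 68.9 TPM in FWT00 livers (-0.33 ± 0.08, adjusted p = 0.301), and C9 at 69.6, 58.9 and 56.9 TPM in FGL40 livers, against 89.5, 95.8 and 83.7 TPM in FWT00 livers (-0.53 ± 0.14, adjusted p = 0.371).

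**Figure D5:**
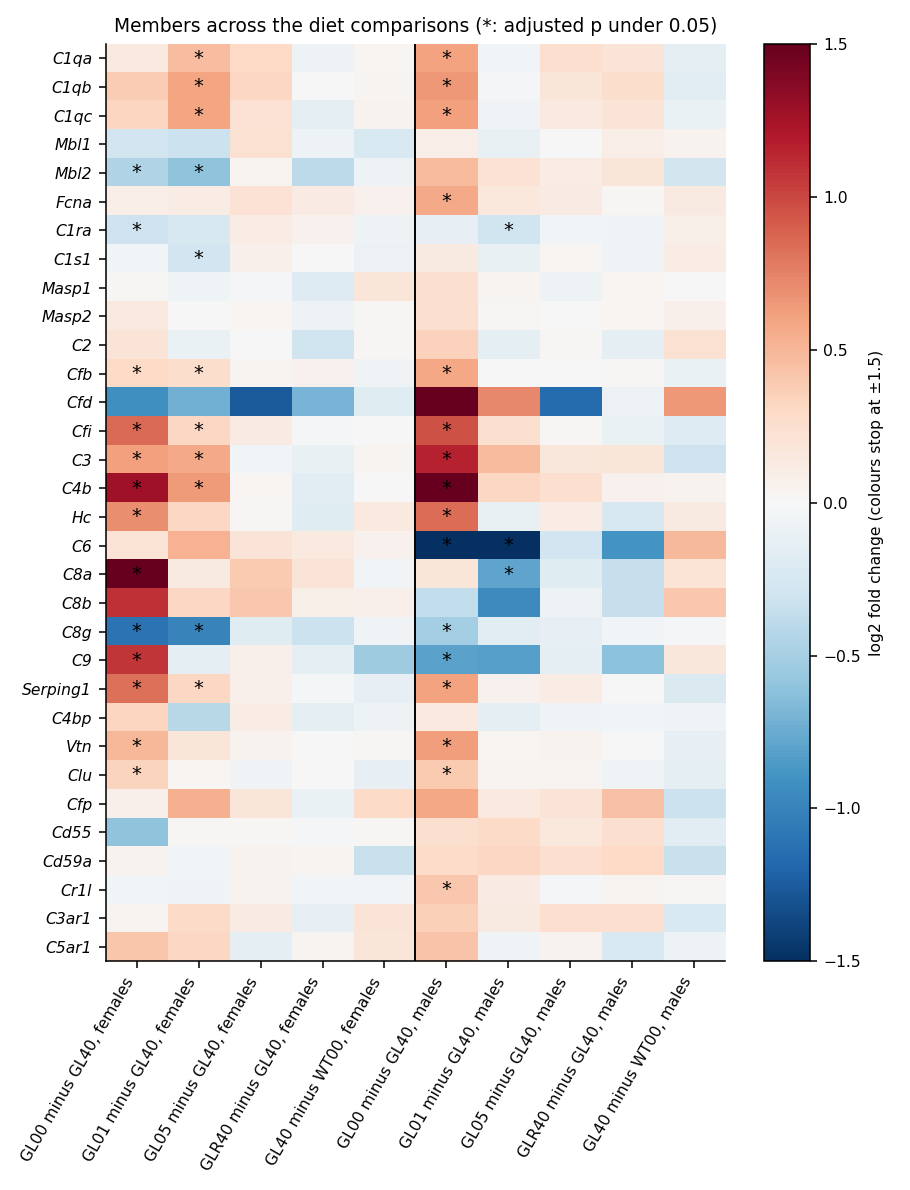
Log2 fold changes of the 32 members (rows, by role) in 5 diet and genotype comparisons in females (left of the line) and males (right of it); red is higher and blue lower in the first cohort named, with colours capped at 1.5, and stars mark an adjusted p under 0.05. Stars stand only in the GL00 and GL01 columns, with 13 in females and 16 in males for GL00 and 11 and 3 for GL01.

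Sex was the strongest divide for several members. Over all 36 mice, with diet as a term, 15 members were higher and 10 lower in females than in males, against 36.8% and 7.41% of 17721 genes. Median-ratio scaling turned the split to 11 higher and 13 lower, against 20.0% and 20.2% of genes, and without the Mup genes it was 14 and 11, against 27.4% and 11.6%. The 25 calls became 26 without FGL40-2695 and stayed 25 in number without MGL01-2713. The 4 largest falls were all terminal genes. C6 ranged over 8.06 to 21.5 TPM with a median of 12.5 TPM in 18 females, against 18.8 to 165 TPM with a median of 77.4 TPM in 18 males (-2.37 ± 0.19, adjusted p = 1.41e-11). C8a had 39.1 to 166 TPM (median 54.6) in females and 120.3 to 352 TPM (median 219.7) in males (-1.70 ± 0.12, adjusted p = 1.23e-12). C9 had 47.8 to 133 TPM (median 68.3) in females and 109.8 to 326 TPM (median 155) in males (-1.25 ± 0.13, adjusted p = 5.51e-09), and C8b had 21.8 to 92.5 TPM (median 43.1) in females and 51.1 to 186 TPM (median 100) in males (-1.18 ± 0.17, adjusted p = 1.95e-06).

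This gap was narrowest in the depleted livers. The ratio of mean C9 in females to that in males was 0.968 in GL00, with overlap, and 0.262 in GL40, without overlap, and for C6 it was 0.484 in GL00 and 0.0833 in GL40. For C8a it was 0.529 in GL00 and 0.198 in GL40. C8g differed little by sex over all mice, at -0.22 ± 0.08 (adjusted p = 0.0227). Its medians were 313.5 TPM in females and 334 TPM in males. Unlike C6, C8a and C9, its sexes were further apart in GL00 than in GL40. The ratio of mean C8g in females to that in males was 0.687 in GL00, 0.608 in GL01 and 0.864 in GLR40, without overlap. In GL05, GL40 and WT00 it was 1.01, 1.05 and 1.08, with overlap. In the interaction of sex with GL00 minus GL40, 3 members were called higher (C6, C8a and C9) and 3 lower (Mbl2, Cr1l and C8g), against 2.39% and 11.3% of genes. Under median-ratio scaling 3 were higher and 1 lower, against 5.43% and 5.32%, and without the Mup genes 3 and 2, against 3.21% and 7.37%. Without FGL40-2695, 6 members were called.

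Members known from macrophages were higher in females. Cfp had 30.2 to 72.1 TPM (median 41.9) in females and 16.0 to 31.0 TPM (median 23.0) in males (0.94 ± 0.10, adjusted p = 3.58e-09), and Fcna 45.6 to 81.5 TPM (median 59.5) in females and 27.8 to 57.5 TPM (median 35.2) in males (0.69 ± 0.06, adjusted p = 8.94e-11). C1qb had 66.0 to 136 TPM (median 81.0) in females and 39.7 to 81.5 TPM (median 52.8) in males (0.70 ± 0.08, adjusted p = 4.49e-08), with C1qa at 62.2 to 113 TPM (median 77.2) in females and 38.2 to 76.4 TPM (median 50.2) in males (0.65 ± 0.08). C1qc had 58.8 to 118 TPM (median 70.8) in females and 34.9 to 70.3 TPM (median 46.4) in males (0.71 ± 0.09). C3ar1 had 1.42 to 2.75 TPM (median 2.0) in females and 0.713 to 1.67 TPM (median 1.09) in males (0.46 ± 0.06, adjusted p = 4.48e-07). All 10 Kupffer cell markers were called higher in females as well, with sums of 307 to 603 TPM in females and 181 to 345 TPM in males, and the C1q chains per Kupffer marker TPM had medians of 0.608 in females and 0.619 in males. Markers of several other cell types were higher in females too. Of the genes tested, 6 of 8 stellate cell, 5 of 7 sinusoidal endothelium, 6 of 8 neutrophil, 3 of 6 monocyte and 3 of 6 cholangiocyte genes were called higher. None of these types had a gene called lower, against 36.8% of all genes higher and 7.41% lower. The remaining types went otherwise. Of 4 adipocyte genes tested 0 were higher and 3 lower, and of 8 hepatocyte genes 2 were higher and 3 lower. Of 5 erythroid genes 2 were higher and 1 lower, and of 2 pancreatic acinar genes none was called. Their part in the member values was not tested. Mbl2 and Mbl1 lay on opposite sides: Mbl2 was higher in females (0.37 ± 0.09, adjusted p = 0.00113) and Mbl1 lower (-0.51 ± 0.07, adjusted p = 6.72e-07), so that the ratio of Mbl2 to Mbl1 TPM had a median of 3.42 in females and 1.83 in males. The Mbl2 difference was not seen in each cohort: the mean in females over that in males was 0.902 in GL00 and 1.0 in GL01, where the sexes overlapped, and 1.18 to 1.73 in the other 4 cohorts, where they did not.

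Other genes of the pathway give the context. Of 25 further complement genes 21 could be tested, and 5 were higher and 3 lower in GL00 than in GL40 in females, and 8 higher and none lower in males, against 9.56% and 13.7% of all genes in females and 9.85% and 2.45% in males. Itgb2 and Itgam, the chains of the leukocyte receptor CR3, and Cpn2, a subunit of the enzyme that inactivates C3a and C5a, were called higher in both sexes, while Cd59b was called lower in females (-0.98) and not in males (-0.58), a difference that was not called (adjusted p = 0.598).

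Of 21 known inducers and transcription factors of complement genes, 6 were higher and 4 lower in GL00 females, and 9 of the 19 tested were higher and none lower in GL00 males, beside the same shares of all genes. Lower ones in females included Foxa2 (-0.95), a hepatocyte transcription factor, and Il6st (-0.32), the shared receptor chain of the interleukin-6 family, which was called higher in males (0.35). Stat3 rose by 1.09 in females and 1.26 in males on the log2 scale, Socs3, its feedback inhibitor, by 1.95 and 1.04, Cebpd by 0.74 and 1.28, Cebpb by 0.64 and 1.37, and Il6ra, the interleukin-6 receptor, by 0.77 and 1.58. Il6 itself was not called in females and was too low to be tested in males. Of 15 acute-phase genes, 13 were called higher in GL00 females and 15 in GL00 males, with median log2 fold changes of 1.38 and 1.63, set beside 0.20 and 0.40 for the 32 complement genes.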

How the data were processed

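The authors deposited 1 table of TPM per gene for 36 mouse livers; per the paper's methods, directional poly(A) libraries were trimmed with fastp 0.20.0 and quantified with kallisto 0.46.2 against Ensembl release 104 transcripts (GRCm39). How transcripts were summed to genes is not given in the sources used here. TPM keep no read depth, so no counting interval could be given, and the number of mice limits the precision. Groups came from the sample labels.

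Tests were run with limma 3.58.1 (trend and robust options, statmod 1.5.0) in R 4.3.3 on log2(TPM + 1), so that fold changes of low genes are understated. Genes above 0 in at least 13 of 18 mice of a sex, or 26 of 36 mice, were tested. Each sex was fitted over its 6 groups, and models of both sexes held sex and diet. Adjusted p-values are Benjamini-Hochberg over all genes tested. With 3 mice against 3 an exact permutation test cannot give a two-sided p below 0.1, and none was used. Sums, ratios and figures were made with Python 3.11.15. The test was run on simulated data first. Those values were drawn with normal spread on the log2 scale, the same in every group. They therefore cannot show how the test behaves with outlying mice or with shifts of scale between mice. The alternatives were a pseudocount of 0.1, no filter or a minimum of 1 TPM in 3 mice, scaling by median ratios, leaving the Mup genes out before rescaling, a fit of the 2 groups alone, array weights, plain eBayes and leaving out each mouse. All 32 members are accounted for; values per mouse are given for those called in GL00 or GL01, by range for those that differ by sex with a ratio of means past 1.5, and for Mbl1, Mbl2 and Fcna. Where nothing was called, the members with the smallest p were named, a choice made after their values were seen. The members and the gene lists were chosen with earlier results of these data known. Results of 3 genes of the lists are not reported here.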

Additional observations from a re-analysis of the deposited data

Results flagged for a closer look

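The effect of GL00 against GL40 differed between females and males for 6 members, by the limma interaction of sex with diet in a fit of all 36 mice. Of these, 3 were called higher and 3 lower in females, against 2.39% and 11.3% of 17721 genes. The difference, female change minus male change on the log2 scale, was 2.47 for C6 (adjusted p = 0.000109), 1.88 for C9 (adjusted p = 0.000157), 1.42 for C8a (adjusted p = 0.00777), -0.92 for Mbl2 (adjusted p = 0.0097), -0.44 for Cr1l (adjusted p = 0.00456) and -0.61 for C8g (adjusted p = 0.0371). The C8g call was lost under 3 of 7 other settings and without 9 of 12 mice in turn (adjusted p up to 0.168), and the Cr1l call under median-ratio scaling (adjusted p = 0.145). For C9 all 3 FGL00 mice lay above all 3 FGL40 mice and all 3 MGL00 mice below all 3 MGL40 mice. What lies behind these differences was not tested.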

How the results depend on the processing

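Of 680 values of 87 named results under other settings, 623 kept their direction and side of the threshold, as did 906 of 1020 values with 1 mouse left out. No paired analysis was possible because each animal number occurs in only 1 group. The count of members called in GL01 against GL40 in females was 11; it was 7 under median-ratio scaling, 5 with only the 2 groups compared, and 4 to 16 with 1 mouse left out (4 without FGL40-2694, 5 without FGL40-2696, 6 without FGL01-2722 or FGL01-2723). In males it was 3, with 1 when low values were not filtered or only the 2 groups were compared, and 0 to 4 with 1 mouse left out (0 without MGL01-2712 or MGL40-2690, 1 without MGL01-2711 or MGL40-2691). For GLR40 against GL40 in females the count of 0 became 2 with only the 2 groups compared and 1 with array weights. The uncalled change of Mbl2 in GL00 with both sexes, 0.02 on the log2 scale, turned to -0.025 under median-ratio scaling and -0.076 without the Mup genes, and lay between -0.11 and 0.089 with 1 mouse left out. The cause was not tested. Depth per library is not in the table, so the counting error of low members such as C5ar1, C3ar1 and Cfd cannot be given.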
